A study of Homo sapiens with 4 samples.

Results

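To find where the H3K27ac peak lists of Hs578T cells departed together from that of MDA-MB-231 cells, regions called in both Hs578T lists and in no MDA-MB-231 list of comparable size were examined. Peaks on chromosomes 1 to 22 and X of both Hs578T lists and of the MDA-MB-231 replicate 2 list were merged, so that intervals sharing at least 1 bp became 1 region. Of 50576 merged regions, 2789 (5.51%, 95% Wilson interval 5.32 to 5.72%) were overlapped by a peak of both Hs578T lists and by none of MDA-MB-231 replicate 2. The regions were chosen by these peak calls, which are measured values. They are called the Hs578T-only regions in what follows, a name that describes the calls and not a tested difference between the lines.

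Both cell lines are established human lines of triple-negative breast cancer with mesenchymal features. Cells of both lines were starved for 8 h, received 10 ng/ml of the cytokine TWEAK (the ligand of the receptor Fn14) for 48 h, and were then left without it, for 72 h per the labels and for longer per the text of the study. Each line gave 2 ChIP-seq libraries, and every library had therefore been exposed to TWEAK. Cells without TWEAK or in its presence were not analysed here, and no value below is an effect of the cytokine or of its removal. The list of MDA-MB-231 replicate 1 held 209 peaks, whereas 43353 peaks were listed for MDA-MB-231 replicate 2, 46330 for Hs578T replicate 1 and 44920 for replicate 2. The small list was not used to choose regions and overlapped 1 of the 2789. The 3 large lists did not separate by line in every comparison. Regions shared by the Hs578T lists alone were the most frequent pair, but at protein-coding promoters 308 genes (1.54%) were marked in MDA-MB-231 replicate 2 and Hs578T replicate 1 alone and 79 (0.396%) in the Hs578T lists alone. Whether each library matched its label was not tested, and every value below depends on it. No test between lines was made, because 1 list against 2 allows 3 splits and the smallest two-sided p of an exact permutation test would be 0.333.

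H3K27ac is the acetylation of lysine 27 of histone H3, placed by the acetyltransferases p300 and CBP. It marks the nucleosomes that flank active promoters and enhancers, and enhancers, unlike promoters, tend to differ between cell types. Strong sites carry wide, high peaks, while weak sites lie close to the threshold of the peak caller, where a small change in signal, background or depth decides whether a peak is reported. In bulk chromatin, a site acetylated in fewer cells and a site acetylated less in every cell cannot be told apart.

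The sequences of the strongest Hs578T-only regions are shown first, as the central 300 bp of the region (reference sequence, hg38, plus strand). Capitals mark matches, on either strand, to the letters of the AP-1 site (TGAGTCA), the CRE (TGACGTCA), the TEAD site (GGAATG), the RUNX site (TGTGGT), the ETS site (CCGGAAG) and the GC box (GGGCGG). Intron and exon labels are set by the midpoint of the region, so a window can reach across a boundary. Where a region overlaps more than 1 gene, as at FAM86DP, the exon may belong to the other gene. The first 3 had the highest fold ranks of all Hs578T-only regions. The last 3 were chosen after their values had been seen, because they showed the strongest region with an AP-1 match and the regions at the promoters of CDH11 and TEX12.
Intron of a lncRNA gene, METRNL nearest, chr17:83203503-83203802: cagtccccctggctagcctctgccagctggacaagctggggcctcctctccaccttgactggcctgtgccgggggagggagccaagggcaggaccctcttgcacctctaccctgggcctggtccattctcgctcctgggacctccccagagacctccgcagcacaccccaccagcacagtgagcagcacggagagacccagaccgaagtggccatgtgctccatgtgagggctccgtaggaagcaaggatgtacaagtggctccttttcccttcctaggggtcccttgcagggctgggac
Intron of PDE1C, chr7:31816033-31816332: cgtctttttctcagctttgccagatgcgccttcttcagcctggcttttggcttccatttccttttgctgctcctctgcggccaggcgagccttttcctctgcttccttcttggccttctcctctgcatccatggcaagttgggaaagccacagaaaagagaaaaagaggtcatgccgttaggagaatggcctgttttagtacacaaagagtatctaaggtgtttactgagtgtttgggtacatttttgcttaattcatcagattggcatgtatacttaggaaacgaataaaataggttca
Exon of the lncRNA gene FAM86DP, chr3:75418046-75418345: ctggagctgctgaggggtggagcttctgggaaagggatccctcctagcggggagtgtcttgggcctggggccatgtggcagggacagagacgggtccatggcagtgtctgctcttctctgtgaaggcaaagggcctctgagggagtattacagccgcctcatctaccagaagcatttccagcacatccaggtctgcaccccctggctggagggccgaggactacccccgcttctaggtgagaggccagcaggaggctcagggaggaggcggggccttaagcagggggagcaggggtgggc
Exon of the lncRNA gene EPCAM-DT, chr2:47221085-47221384: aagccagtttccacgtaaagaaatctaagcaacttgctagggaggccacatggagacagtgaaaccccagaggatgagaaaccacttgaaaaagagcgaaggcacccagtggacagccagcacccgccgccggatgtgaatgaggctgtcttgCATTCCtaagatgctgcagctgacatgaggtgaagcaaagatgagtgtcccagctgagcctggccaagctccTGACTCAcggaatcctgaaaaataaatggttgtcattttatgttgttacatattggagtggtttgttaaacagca
Promoter of CDH11, chr16:65122881-65123180: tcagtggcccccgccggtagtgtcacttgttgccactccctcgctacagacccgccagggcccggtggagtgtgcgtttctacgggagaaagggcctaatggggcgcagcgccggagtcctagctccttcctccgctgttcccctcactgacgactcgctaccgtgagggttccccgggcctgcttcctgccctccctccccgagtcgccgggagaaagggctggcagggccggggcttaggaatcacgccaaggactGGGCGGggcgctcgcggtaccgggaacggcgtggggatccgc
Promoter of TEX12, chr11:112166719-112167018: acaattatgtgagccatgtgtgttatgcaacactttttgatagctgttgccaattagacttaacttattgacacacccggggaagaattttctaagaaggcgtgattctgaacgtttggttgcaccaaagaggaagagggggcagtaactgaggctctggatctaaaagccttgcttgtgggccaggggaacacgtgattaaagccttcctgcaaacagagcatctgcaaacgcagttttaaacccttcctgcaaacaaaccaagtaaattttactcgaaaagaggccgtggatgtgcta

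In the strongest region, in PDE1C, in FAM86DP and at TEX12, none of the 6 motifs was present in the window. The window in EPCAM-DT held a TEAD match at base 154 and an AP-1 match at base 226, and the window at CDH11 held a GC box at base 259. In FAM86DP, 13.2% of the 32-base words taken from the central 300 bp occurred at 1 place only in the reference. The region also overlaps the unprocessed pseudogene ALG1L6P, and the exon class does not tell which gene's exon holds its midpoint. Reads there could have come from near-identical copies, so its values are uncertain. In the lncRNA intron near METRNL, in PDE1C, in EPCAM-DT and at CDH11 and TEX12, all words were unique.

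Hs578T-only regions were weaker and narrower than regions called in all 3 lists, but not than regions called in another pair of lists or in 1 list. Fold enrichment, the authors' ratio of a peak's signal to its local background, ranged from 2.21 to 7.65 in Hs578T replicate 1 with a median of 2.99. In replicate 2 it ranged from 2.34 to 7.04 with a median of 3.03. Each peak was placed among all peaks of its own list, from 0 for the weakest to 100 for the strongest, and this percentile is called its fold rank. The median fold rank of the Hs578T-only regions was 15.9 in replicate 1 and 14.9 in replicate 2, and the highest were 68.6 and 69.6. The mean over both lists had a median of 15.7. In regions called in all 3 lists, the mean over all 3 had a median of 56.7. Regions of MDA-MB-231 replicate 2 and Hs578T replicate 1 alone had a median of 14.4 over these 2 lists. Those of MDA-MB-231 replicate 2 and Hs578T replicate 2 alone had 11.8, and regions of a single list 7.63 to 9.15. Among the Hs578T-only regions, both ranks were under 25 in 1818 (65.2%), both reached 25 in 302, and both reached 50 in 6. The fold ranks in the Hs578T lists went together less closely among the 2789 regions (Spearman's rho 0.435) than among the 37832 regions called in all 3 lists (0.959), a comparison narrowed by the small range of ranks in the former. A q-value of 0.01 or below was reached in 1878 regions (67.3%) in replicate 1, in 1369 (49.1%) in replicate 2 and in 1088 (39.0%) in both.

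**Figure D1:**
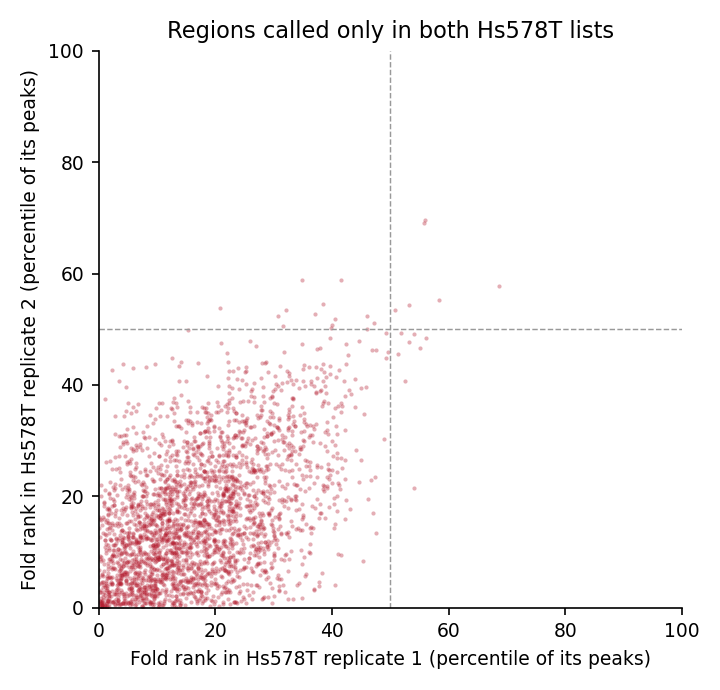
Fold rank of each of the 2789 Hs578T-only regions (1 point each) in Hs578T replicate 1 (x axis) and Hs578T replicate 2 (y axis), as a percentile of the peaks of that list, with dashed lines at 50. Points crowd below 25 on both axes, and 6 lie above 50 on both.

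Width showed the same order. The median Hs578T-only region was 805 bp wide (quartiles 589 and 1063 bp, range 221 to 5579 bp). In regions called in all 3 lists the median was 1843 bp. The widths are those of merged peaks, so the latter join peaks of 3 lists and the former of 2. Regions of MDA-MB-231 replicate 2 with Hs578T replicate 1 or 2 alone, also merged from 2 lists, had medians of 741 and 693 bp. Regions of a single list had medians of 399 to 428 bp. Of the 2789, 502 (18.0%) were under 500 bp and 86 were over 2 kb, and all together they covered 2491 kb. Within them, peaks of replicates 1 and 2 had median covered lengths of 634 and 573 bp. The bases covered in both lists made up 0.520 of those covered in either. Strength and calls were linked by the way the regions were chosen, and these values support nothing beyond that description.

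How often a region was missed by a list was next followed along the fold rank. The 40621 regions called in both Hs578T lists were cut into 10 equal groups by their mean rank, and 37.8% (36.3 to 39.3%) of the weakest group had no MDA-MB-231 replicate 2 peak. The share was 20.2% in the second group, 8.15% in the third, 1.92% in the fourth and 0.0985% in the sixth, and it was 0 in the upper 4 groups of 4062 or 4063 regions each, with a Wilson upper bound of 0.0945%. Pairs that joined the lines gave curves of the same form. Regions called in MDA-MB-231 replicate 2 and Hs578T replicate 1 but not in Hs578T replicate 2 numbered 1723 (3.41% of merged regions), and those called in MDA-MB-231 replicate 2 and Hs578T replicate 2 alone numbered 559 (1.11%). In the weakest group of these pairs the remaining list lacked 27.3% (25.9 to 28.7%) and 11.2% (10.3 to 12.3%). Hs578T-only regions thus made up 55.0% of the 5071 regions called in exactly 2 of the lists. The 3 pair counts went in reverse order of the size of the missing list, of 43353, 44920 and 46330 peaks. With the same number of top-score peaks taken from each list, they were 2023, 1615 and 875. Whether list size set these counts was not tested.

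**Figure D2:**
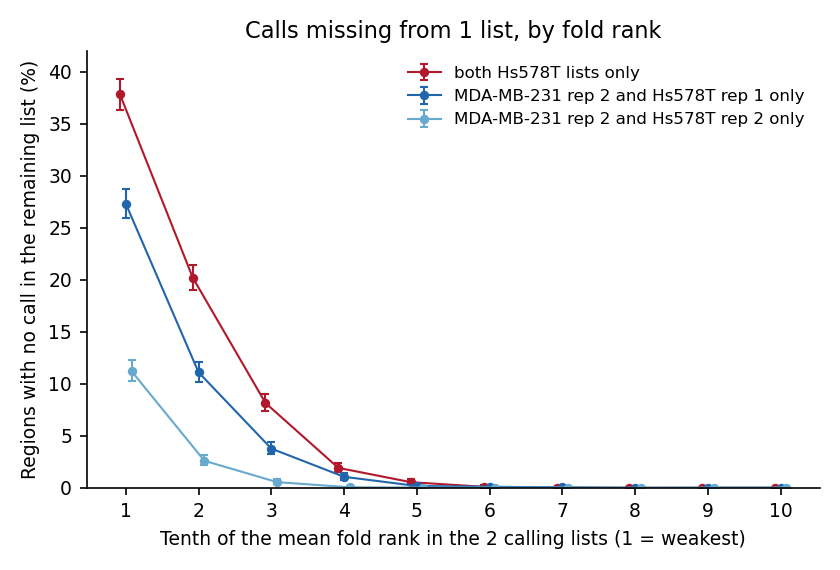
Share of regions without a peak in the remaining list (y axis, %) by decile of the mean fold rank in the 2 lists that called them (x axis, 1 is the weakest), with 95% Wilson intervals. In red, regions of both Hs578T lists lacking MDA-MB-231 replicate 2 fall from 37.8% to 0, and both blue curves, for pairs that joined the lines, start at 27.3% and 11.2% and fall in the same way.

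At the edge of the rule, membership turned on a few bases. The Hs578T-only regions closest to a MDA-MB-231 replicate 2 peak lay 3 bp away at ANXA1 (chr9:73156756-73157388), which encodes the phospholipid-binding protein annexin A1, 7 bp away at PYGM (chr11:64762396-64763842) and 8 bp away at ANKRD11 (chr16:89471299-89471782). Just outside the rule, regions nearest NFAT5, MYEOV and DNMBP shared 8, 12 and 22 bp with such a peak. Over all Hs578T-only regions the median distance to a MDA-MB-231 replicate 2 peak was 9.65 kb (quartiles 3.62 and 26.0 kb). Within 10 kb lay 1420 regions (50.9%, 49.1 to 52.8%), within 1 kb 87 (3.12%), and within 100 kb 2626 (94.2%). For the pairs that joined the lines, the median distance to the list that lacked them was 9.45 and 9.03 kb, and these medians lie within the quartiles of the Hs578T-only regions. At the other end stood 2 neighbouring intergenic regions with CTNND2, a delta-catenin gene, as nearest gene, at 1322 and 1319.5 kb from any MDA-MB-231 replicate 2 peak. They were followed by a region nearest POM121L12 at 1204 kb, where 54.4% of words were unique, and by 2 regions in NRXN3, a neurexin gene, at 991 and 986 kb. Fold ranks of these 5 regions were between 0.711 and 29.2 in Hs578T replicate 2.

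The 10 Hs578T-only regions with the highest mean fold rank had no common position. First stood chr17:83202519-83204787, in an intron of a lncRNA gene 123 kb from METRNL, which encodes a secreted meteorin-like protein. Its fold enrichment was 7.65 and 5.53 in Hs578T replicates 1 and 2, its ranks were 68.6 and 57.7, and the nearest MDA-MB-231 replicate 2 peak was 91.5 kb away. Next came chr7:31815062-31817304 in an intron of PDE1C, a calmodulin-dependent cyclic nucleotide phosphodiesterase, with 5.75 and 7.04 (ranks 55.9 and 69.6) and 121 kb to such a peak. The exonic region over FAM86DP and ALG1L6P (chr3:75418041-75418351) had 5.74 and 6.96. These 3 regions alone kept a peak among the upper 50% of scores of both Hs578T lists. The remaining 7 had mean ranks of 50.6 to 56.8. They included regions in the lncRNA genes LINC03036, ENSG00000287719 and EPCAM-DT, near PRDM11, and on chromosome 7 with PRSS58 as the nearest protein-coding gene. The region in EPCAM-DT (chr2:47220601-47221868, fold 5.20 and 5.13) was 1.59 kb from a MDA-MB-231 replicate 2 peak.

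The widest Hs578T-only region, at chr11:122118746-122124324, lay in MIR100HG, the host gene of miRNAs, 2.53 kb from the start site of BLID, and was 5579 bp long. It was covered over 5579 bp in Hs578T replicate 1 and over 1848 bp in replicate 2. Then came 2 neighbours in MYOF, a ferlin of membrane repair, with 5457 and 4719 bp, a region in an intron of HBEGF, an EGFR ligand gene, with 4371 bp, and a region in LPAR1, a lysophosphatidic acid receptor, with 3769 bp. Mean fold ranks of these 5 were 12, 11.6, 2.11, 16.9 and 19.6, so great width went without high rank. The distance to a MDA-MB-231 replicate 2 peak was 1.15 to 7.82 kb.

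Position relative to genes differed between Hs578T-only and shared regions. A region within 1 kb of the canonical start site of any gene was called a promoter, and others were placed in exon, intron or intergenic sequence by their midpoint (GENCODE release 44). Promoters made up 214 of 2789 Hs578T-only regions (7.67%, 6.74 to 8.72%), compared with 32.9% of regions called in all 3 lists. Introns held 59.4% against 42.5%, intergenic sequence 26.1% against 20.4%, and exons 6.88% against 4.25%. The promoter share also varied with strength, and that of shared regions fell from 39.1% at ranks of 40 and above to 11.2% (9.30 to 13.4%) below 10. In that lowest range the Hs578T-only share was 6.74% (5.12 to 8.83%), and the intervals do not overlap. The shared regions of that range were wider, with a median of 984 against 789 bp, and the shares were not corrected for width. Between ranks 30 and 40 the shares were 10.1% (6.87 to 14.6%) and 20.7% (19.5 to 22%). Regions of MDA-MB-231 replicate 2 and Hs578T replicate 1 were at promoters in 20.1%, those of MDA-MB-231 replicate 2 and Hs578T replicate 2 in 7.87%, the latter within the interval of the Hs578T-only regions. Regions of Hs578T replicate 1 alone were at promoters in 8.60%, and those of Hs578T replicate 2 alone in 5.73%. The median distance to a protein-coding start site was 44.8 kb, and 24.7 kb for regions called in all 3 lists. It was 43.5 kb for regions of MDA-MB-231 replicate 2 and Hs578T replicate 2, 40.2 kb for those of MDA-MB-231 replicate 2 alone and 31.2 kb for those of MDA-MB-231 replicate 2 and Hs578T replicate 1.

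**Figure D3:**
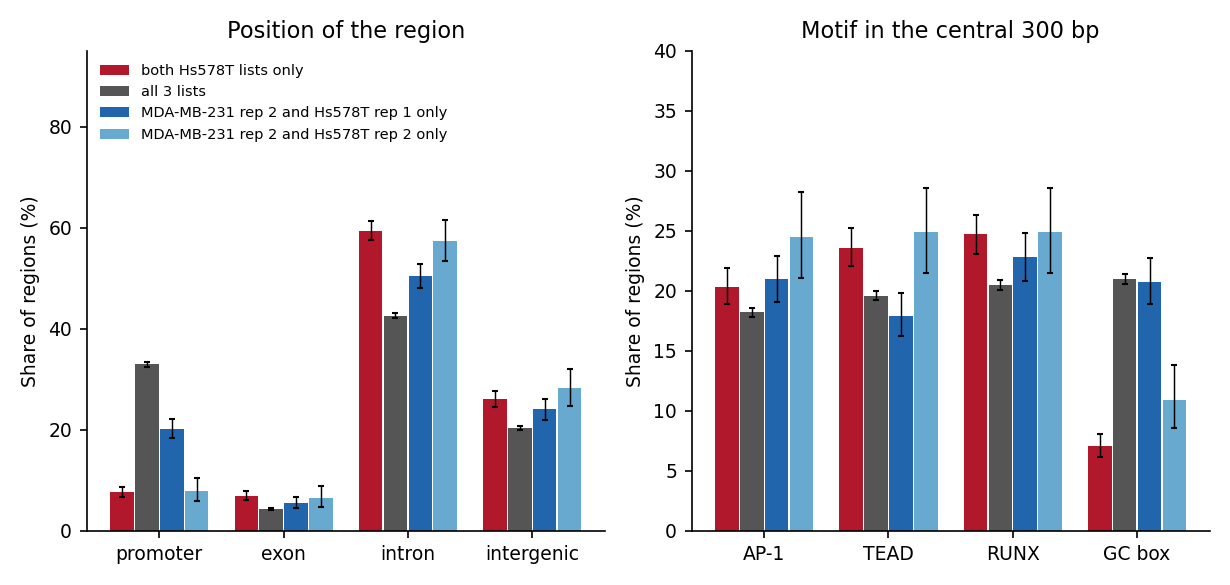
Share of regions (y axis, %) by position (left) and with a motif in the central 300 bp (right), for Hs578T-only regions (red), regions called in all 3 lists (grey) and pairs that joined the lines (blue), with 95% Wilson intervals. The red bar is far below the grey one for promoters (7.67% against 32.9%) and for the GC box (7.06% against 21.0%), and close to it for AP-1 (20.3% against 18.2%).

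Sequence composition followed the same division. The central 300 bp of Hs578T-only regions had a median GC content of 43.7% and an observed to expected CpG ratio of 0.189, against 47.7% and 0.277 in regions called in all 3 lists. Values close to these were found in regions of MDA-MB-231 replicate 2 and Hs578T replicate 2 (44% and 0.208) and of Hs578T replicate 2 alone (43.3% and 0.187). The GC box was found in 7.06% (6.17 to 8.07%) of Hs578T-only windows and in 18.2% of the windows of all merged regions. Outside promoters the gap was smaller, with 6.10% (5.24 to 7.09%) of Hs578T-only windows, 7.82% of all merged regions and 8.17% of regions called in all 3 lists. The ETS letters were found in 1.40% against 3.67%, and the CRE in 0.143% against 0.490%. The AP-1 site, bound by FOS and JUN family dimers, occurred in 567 windows (20.3%, 18.9 to 21.9%), against 18.3% of all merged regions. Outside promoters the order turned, with AP-1 in 20.8% (19.3 to 22.4%) of Hs578T-only windows and 23.9% (23.4 to 24.5%) of those called in all 3 lists. At fold ranks below 10 the AP-1 shares were 20.1% (17.3 to 23.2%) and 26.4% (23.6 to 29.3%). Between 10 and 20 they were 21.6% (19.3 to 24.1%) and 24.0% (22.3 to 25.7%), between 20 and 30 they were 18.7% (15.9 to 21.9%) and 24.7% (23.3 to 26.1%), and between 30 and 40 they were 20.6% (15.9 to 26.2%) and 24.0% (22.7 to 25.3%). From rank 40 upwards they were 16.1% (8.69 to 27.8%, 56 regions) and 15.7%, so the intervals lay apart in the first and the third of these ranges alone. The TEAD letters, read by the partners of YAP, occurred in 23.6% against 19.8% of all merged regions and the RUNX letters in 24.7% against 21.3%. Outside promoters RUNX stood at 25% (23.3 to 26.7%) against 24.5% in regions called in all 3 lists, and TEAD at 23.8% (22.2 to 25.4%) against 22.6%, and both intervals include the shared value. The E-box CAGCTG (14.3% against 15.3%), the ZEB site CACCTG (19.1% against 20%), the GATA letters AGATAAG (4.34% against 3.70%) and the NF-κB site (3.66% against 4.76%) completed the 10 motifs searched. The E-box and ZEB letters differ at single positions and cannot be the same match. Windows in which fewer than 50% of the 32-base words were unique made up 6.38% (5.53 to 7.35%) of Hs578T-only regions and 5.88% of all merged regions.

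Regions called in all 3 lists that lay beside Hs578T-only regions were then compared. Their ranks did not enter the rule, but a MDA-MB-231 replicate 2 peak reaching further would have taken in the neighbour. The comparison is therefore not independent of the choice. Of the 37832 shared regions, 18230 (48.2%) had a higher fold rank in both Hs578T lists than in MDA-MB-231 replicate 2. Of the 1344 that were the nearest shared region to a Hs578T-only region and at most 10 kb from it, 756 (56.2%, 53.6 to 58.9%) did, and 327 (24.3%, 22.1 to 26.7%) had a lower rank in both, against 30.9% of all shared regions. Their median ranks were 55.5 in MDA-MB-231 replicate 2, 60.9 in Hs578T replicate 1 and 60.5 in Hs578T replicate 2. The median difference of the mean Hs578T rank from the MDA-MB-231 replicate 2 rank was 3.40 percentile points (quartiles -1.86 and 10.15), compared with 1.75 for all shared regions. Beside regions of MDA-MB-231 replicate 2 and Hs578T replicate 1 alone the difference was 0.54, and 43.9% (40.5 to 47.3%) ranked higher in both Hs578T lists. Beside regions of MDA-MB-231 replicate 2 and Hs578T replicate 2 alone these values were 1.17 and 44.7% (38.9 to 50.7%), and beside those of MDA-MB-231 replicate 2 alone 0.20 and 40% (36.8 to 43.3%). Beside regions of a single Hs578T list they were 1.79 and 49.1% (46.7 to 51.5%) for replicate 1 and 1.95 and 52.6% (49.7 to 55.4%) for replicate 2, the latter overlapping the interval of the Hs578T-only regions. Shared regions next to Hs578T-only regions therefore leaned to the Hs578T lists by a few percentile points, less than the distance between their quartiles.

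The share of Hs578T-only regions differed between chromosomes. Chromosome 8 had the lowest share, with 61 of its 2092 regions (2.92%, 2.28 to 3.73%), followed by chromosome 7 with 92 of 2585 (3.56%, 2.91 to 4.34%). Chromosome 4 had the highest, with 222 of 2976 (7.46%, 6.57 to 8.46%), followed by the X chromosome with 6.85% (5.63 to 8.31%), chromosome 12 with 6.66% and chromosome 10 with 6.62%. Regions called in MDA-MB-231 replicate 2 alone were most frequent where these were rarest, with 7.17% on chromosome 8 and 6.65% on chromosome 7, and made up 3.23% on chromosome 4. Shared regions followed the chromosome as well. On chromosome 8 their median mean Hs578T rank was 2.91 percentile points below that in MDA-MB-231 replicate 2 (difference -2.91), and 27.4% (25.3 to 29.6%) ranked higher in both Hs578T lists. On chromosome 4 the difference was 5.87, and 64.6% (62.5 to 66.6%) did. Across the 23 chromosomes, the Hs578T-only share and the median rank difference of shared regions had a Pearson's r of 0.860 and a Spearman's rho of 0.871, given as a description because all points come from the same 3 libraries and neighbouring regions are not independent. Several chromosomes departed from that order, such as chromosome 22, with a difference of -2.20 and a share of 4.64% (3.45 to 6.21%). Chromosomes 13 and 14 had differences of 2.74 and 3.57 with shares of 4.55% and 4.92%, and chromosome 17 had 1.25 and 6.21%.

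**Figure D4:**
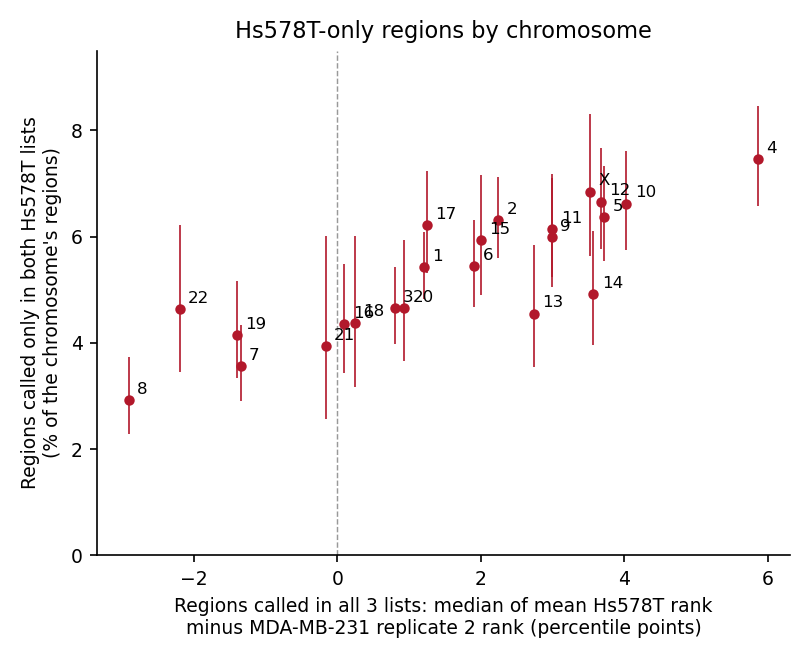
Each point is a chromosome. The y axis gives the Hs578T-only share of its merged regions (%, bars are 95% Wilson intervals), and the x axis the median, over regions called in all 3 lists, of the mean Hs578T fold rank minus the MDA-MB-231 replicate 2 fold rank (percentile points). Chromosome 8 lies lowest and leftmost at 2.92% and -2.91, and chromosome 4 highest and rightmost at 7.46% and 5.87.

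Hs578T-only regions were scattered over many genes. They were nearest to 1 start site each for 1788 of the 2213 protein-coding genes involved, and 1490 of 2622 windows of 1 Mb with any region held at least 1, up to 10 in a window on chromosome 17 that includes SMURF2. Along the chromosomes 2414 stood with no other Hs578T-only region directly before or after them in the order of merged regions, 162 runs had 2 members and 14 had 3. The longest run was 5 regions in PDE1C, and the next was 4 at VIT, which encodes the matrix protein vitrin.

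Among the genes nearest to the most Hs578T-only regions, PDE1C (chr7:31751179-32428131) had the highest share of them, although chromosome 7 had few. Of the 9 regions nearest to its start site, 6 (66.7%) were Hs578T-only. This share was not ranked over all genes. In the gene, 10 peaks covered 16.3 kb in Hs578T replicate 1 and 10 covered 15.6 kb in replicate 2, while 3 peaks covered 3.30 kb in MDA-MB-231 replicate 2. Of the 10 regions, 7 were Hs578T-only and 3 were called in all lists. The median ranks of these 3 shared regions were 23.5 in MDA-MB-231 replicate 2, 57.1 in Hs578T replicate 1 and 65.7 in Hs578T replicate 2, and each of the 3 was higher in both Hs578T lists. No list had a peak at the canonical start site.

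CDH11 encodes a cadherin of mesenchymal cells. It was nearest to 6 Hs578T-only regions among 13 regions, 5 of which were called in all 3 lists. Its promoter region (chr16:65122318-65123743) had folds of 2.97 and 3.03 and ranks of 15.3 and 14.7 in the Hs578T lists, and the closest MDA-MB-231 replicate 2 peak was 212 kb away. Inside the gene a second region of 305 bp had folds of 3.5 and 3.39, and MDA-MB-231 replicate 2 had 0 peaks. The other 4 lay 153 to 449.7 kb from the start site. Of the 5 shared regions, 4 ranked higher in both Hs578T lists and 1 lower, with medians of 33.2 in MDA-MB-231 replicate 2 against 46.8 and 42.6 in the Hs578T lists. CDH11 was picked for this description after its values had been seen.

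**Figure D5:**
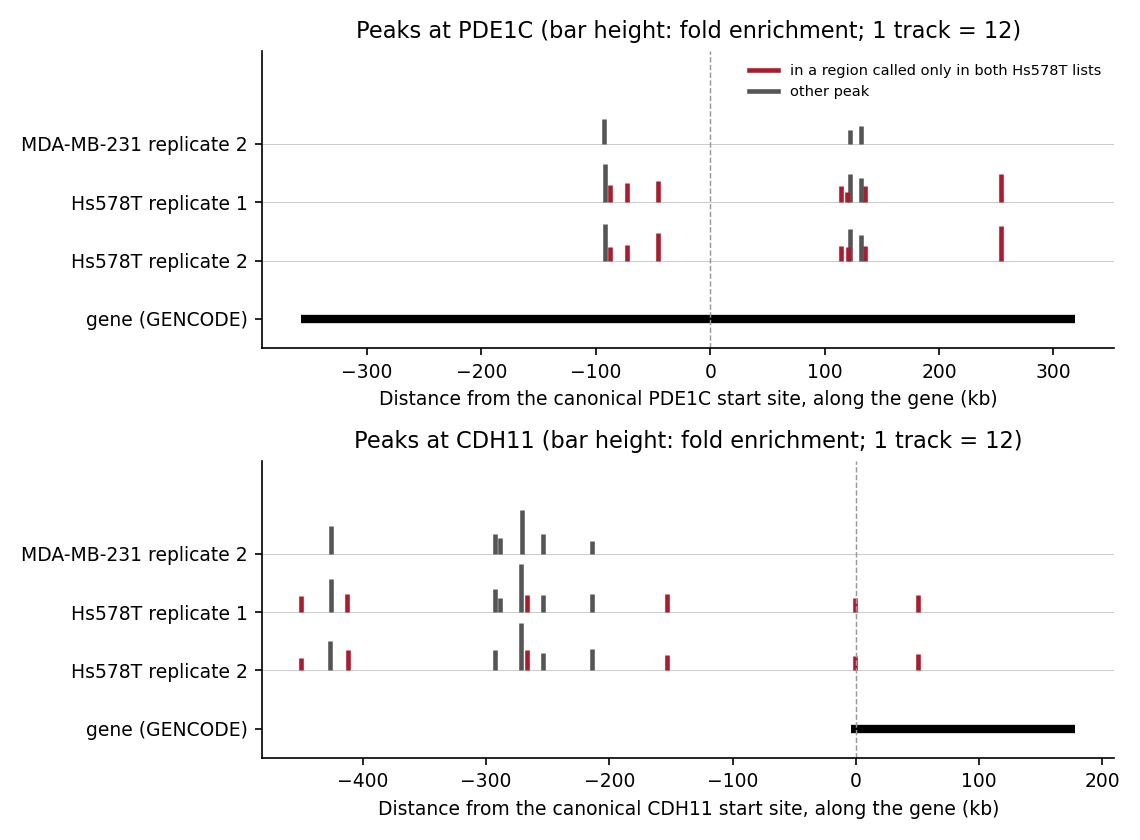
Peaks of the 3 lists along PDE1C (top) and CDH11 (bottom). The x axis is the distance from the canonical start site in kb, positive in the direction of transcription, the height of a bar is the fold enrichment (12 fills a track), red bars lie in Hs578T-only regions and the black bar is the annotated gene. At PDE1C there are 10 peaks in each Hs578T list and 3 in MDA-MB-231 replicate 2, and at the CDH11 start site a peak appears in the Hs578T lists alone.

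NRP1 was nearest to 7 Hs578T-only regions among 45 regions (15.6%), PCDH7 to 7 among 22 (31.8%) and IRS1 to 6 among 37 (16.2%). Of all merged regions, 5.51% were Hs578T-only. At PCDH7, a protocadherin gene, all 12 shared regions ranked higher in both Hs578T lists, with medians of 33.9 in MDA-MB-231 replicate 2 against 54.5 and 49.9 in the Hs578T lists. Its promoter peak ranked 62.0 in MDA-MB-231 replicate 2, 73.0 in Hs578T replicate 1 and 64 in replicate 2, and 3 of its 7 regions lay 559.9 to 947 kb from any MDA-MB-231 replicate 2 peak. At NRP1, the co-receptor of semaphorins and VEGF, 16 of 24 shared regions ranked higher in both Hs578T lists and 4 lower. Its promoter ranked 95.4 in MDA-MB-231 replicate 2 against 93.2 and 88.0 in the Hs578T lists, so the promoter did not share the lean of the surrounding regions. At IRS1, the adaptor of the insulin receptor, 20 of 27 shared regions ranked higher and 3 lower, and the promoter ranked 89.7, 89.0 and 84.2 in the same order. SMURF2 and TGFB2, named after their values were seen, had 6 Hs578T-only regions each, with 9 of 16 and 13 of 21 shared regions higher in both Hs578T lists and 4 and 2 lower. The median shared ranks at SMURF2 went the other way, with 60.1 in MDA-MB-231 replicate 2 against 56.9 and 57.6 in the Hs578T lists, and at TGFB2 they were 72.0 against 73.1 and 74.6. Each of these genes had been chosen for its number of Hs578T-only regions, and the shared values are descriptions without a test. Over all shared regions of chromosome 4 (PCDH7), 64.6% ranked higher in both Hs578T lists. This share was 59.2% on chromosome 10 (NRP1), 49.7% on chromosome 2 (IRS1), 46.6% on chromosome 17 (SMURF2) and 45.8% on chromosome 1 (TGFB2).

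Few protein-coding promoters changed their call. Among 19970 protein-coding genes, 79 (0.396%) had a peak within 1 kb of the canonical start site in both Hs578T lists and none in MDA-MB-231 replicate 2. Marked promoters numbered 308 in MDA-MB-231 replicate 2 and Hs578T replicate 1 alone, 146 in MDA-MB-231 replicate 2 alone and 11112 in all 3 lists. Of the 79, 63 were touched by a Hs578T-only region. The other 16 sat in wider regions that a MDA-MB-231 replicate 2 peak reached outside the window, and these included 8 of the 10 with the highest promoter ranks. KRT34, a hair keratin gene, headed them with folds of 21.2 and 21.1 and a MDA-MB-231 replicate 2 peak 1.02 kb from its start site. SPATA31D4, ENSG00000257390, KRTAP20-4 and ART4 had such a peak at 1.00 to 1.15 kb, and AHNAK2, ANXA9 and PSG4 at 1.52 to 2.27 kb. At these 8 genes MDA-MB-231 replicate 2 had a peak in the same region, and its missing call turned on how far that peak reached. The high mean ranks of AHNAK2, ANXA9 and PSG4 came from Hs578T replicate 1, with folds of 22.5, 12.1 and 13.7. In Hs578T replicate 2 their folds were 2.95, 2.89 and 2.78, in peaks of 342, 220 and 563 bp.

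Among promoters touched by Hs578T-only regions, CA5B, a mitochondrial carbonic anhydrase gene on the X chromosome, ranked highest with folds of 5.45 and 4.68 (ranks 53.2 and 47.8). Its region of 364 bp lay 52.3 kb from a MDA-MB-231 replicate 2 peak. TEX12, which encodes a component of the synaptonemal complex of meiosis, followed with 4.38 and 3.88, and its region covered the start site. Its nearest MDA-MB-231 replicate 2 peak was 1.54 kb away. CRBN, the substrate receptor of an E3 ubiquitin ligase, had 4.25 and 3.62, and PLAAT1, a phospholipase and acyltransferase gene, had 4.32 and 3.53 with no such peak within 283 kb. HPSE, which encodes heparanase, had 3.53 and 4.05. The shared start region of CFAP206, a cilium gene, and ENSG00000213204 had 4.23 and 3.36. LGALS9C, with 3.25 and 4.15, is a near copy of LGALS9, and 66.2% of the words in its window were unique, so its value is uncertain. SMUG1, a uracil DNA glycosylase gene, and ZNF211 had folds of 4.16 and 3.29 and of 3.91 and 3.36. In these genes after TEX12, chosen after their values were seen, peaks were 206 to 808 bp wide. Of the 214 Hs578T-only promoter regions of any gene type, 65 were at protein-coding genes, 75 at lncRNA genes and 74 at others.

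Genes of known pathways were read from 15 lists. A Hs578T-only region lay in the gene or at its promoter for 1476 of 19970 protein-coding genes (7.39%), and the share rose with gene length from 0.776% of the 3994 shortest to 20.3% (19.1 to 21.6%) of the 3994 longest, of 90.8 kb and more. Among TGF-beta ligands, receptors and SMADs, 10 of 25 genes (40%) held one, and the median gene of this list was 87.5 kb long compared with 27.5 kb over all genes. SMAD6, an inhibitory SMAD, held 2, the stronger at ranks 30.5 and 32.4. TGFBR3, the co-receptor betaglycan, held one at 32.1 and 19.2, and SMAD4, the common partner of receptor-activated SMADs, one at 13 and 23.2. TGFB2, SMAD3, BMPR1A, BMPR1B, BMP6, LTBP1 and LTBP2 made up the rest. None of the 10 held one at its own promoter, and 8 of the 10 genes had a promoter peak in all 3 lists. In the list of TWEAK, Fn14 and NF-κB genes, 4 of 20 (20%, median length 34.1 kb) held one, while all 20 promoters were marked in all 3 lists. TRAF3 and TRAF2, adaptors that bind TNF receptors, MAP3K14, the kinase NIK of the non-canonical pathway, and NFKB1, a subunit of NF-κB, had mean ranks of 18.0, 7.14, 16.9 and 15.

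The EMT transcription factors ZEB2 and TWIST1 held a Hs578T-only region (2 of 13 genes), at ranks of 14.1 and 14.6 and of 14.6 and 13. That of TWIST1 lay 96.3 kb from the start site and only overlapped the far end of the annotated gene, with its midpoint in intergenic sequence. Of 24 mesenchymal adhesion and matrix genes, CDH11 and COL3A1, a fibrillar collagen gene, did. Of 24 epithelial genes EPCAM (ranks 39.3 and 24.9) and KRT8 (26.8 and 24.3) did, and of 18 luminal genes KRT8, again, and ERBB2. Among 28 neuronal synapse and channel genes, whose median length was 487 kb, 5 did, with GRIK2, a kainate receptor gene, highest at 37.1 and 52.8. HOXC10 and LHX9 of 40 developmental factors, TEX12 and MSH4 of 21 meiosis genes and HPRT1 and PGK1 of 12 housekeeping genes completed the hits. No gene did among 11 AP-1 subunits, 36 WNT genes, 24 cytokines and chemokines, 18 NAMPT and NAD genes and 14 immune genes, lists with median lengths of 6.21 to 39.9 kb.

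Marker promoters were read in each list to check the labels. VIM, FN1 and ZEB1 were marked in all 3 lists, CDH11 in both Hs578T lists, SPARC in Hs578T replicate 1 (fold 4.78), and CDH2 and TWIST1 in none, so that 3 of 7 mesenchymal markers were marked in MDA-MB-231 replicate 2, compared with 5 in Hs578T replicate 1 and 4 in replicate 2. EPCAM was marked in MDA-MB-231 replicate 2 (5.04) and Hs578T replicate 1 (3.36), and ESR1, GATA3, FOXA1, CDH1 and ESRP1 in none. The immune markers PTPRC, CD3E and CD14 were marked in none. CDH11 was the single marker of these whose call followed the cell line label. Its promoter region, at ranks of 15.3 and 14.7, is a Hs578T-only region chosen by that same pattern of calls. It is therefore no separate check of the labels.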

How the data were processed

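H3K27ac ChIP-seq peak lists of 4 libraries were used, 2 per line, grouped by sample title. The authors trimmed reads with Trimmomatic, aligned them to hg38 with Bowtie2, called peaks per library with MACS2 against input and removed blacklisted regions; versions are not given in the sources used here. Each deposited peak carries a score, a fold enrichment (a ratio over local background) and −log10 p- and q-values, as the authors' caller gave them. Sequencing depth is unknown.

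Peaks were merged with Python 3.11.15, NumPy 2.4.6 and SciPy 1.17.1, and figures drawn with Matplotlib 3.10.9. Fold was compared between lists only as a percentile within its list. Genes came from GENCODE release 44, sequences from the hg38 reference. Words of 32 bases were taken every 4 bases from the central 300 bp and counted on chromosomes 1 to 22 and X. Wilson intervals (95%) cover counting error only. The scripts were tested on simulated data.

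The regions and gene lists were chosen with earlier results of these data known. Named were the 10 highest-ranked regions and promoters, the 5 widest, the 5 farthest from and 3 nearest to an MDA-MB-231 replicate 2 peak, the 5 genes nearest to most regions and up to 3 genes per list; some items under these rules are not reported here. Alternatives changed score or q-value limits, list size, merging, overlap, distance, sequences, start sites, windows and replicates.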

Additional observations from a re-analysis of the deposited data

How the results depend on the processing

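Of 55 recomputed values for 7 results, 19 stayed within 1.5 times the reported count or within the reported interval or spread, and 36 moved. None of the results had a test or a direction to reverse. Leaving out a list moved the number of Hs578T-only regions from 2789 to between 5425 and 40767, the highest when MDA-MB-231 replicate 1 stood in for replicate 2. The same omissions gave median widths of 487 to 1671 bp, promoter shares of 6.69 to 30.9%, shares within 10 kb of a peak of the MDA-MB-231 list used of 0.150 to 55.2%, median fold ranks of 11.1 to 54.5, AP-1 shares of 16.5 to 18.3% and 123 to 11182 promoters. Every count therefore rests on the single large MDA-MB-231 list. With the 50% of Hs578T peaks with the highest scores, 3 regions remained (0 at promoters, 0 within 10 kb and 0 with the AP-1 site) and 3 promoters. With the upper 50% of all 3 lists there were 1537 regions, and with Hs578T q-values of at most 0.01 there were 1088 regions, 44.7% within 10 kb, and 37 promoters. Requiring peaks to cover at least 50% of a region gave a promoter share of 12% and 76.4% within 10 kb, and merging peaks within 1 kb gave 48.5% within 10 kb. The promoter share was 9.07% with start sites of all basic transcripts and 13.6% with a window of 2.5 kb. The AP-1 share was 28.6% in the central 500 bp and 34.0% in whole regions. With equal numbers of peaks from each list, 2023 regions and 64 promoters were found, beside 1615 and 875 regions of the pairs that joined the lines. The cause of these movements was not tested beyond the construction of each alternative. No paired analysis was possible because the results came from no test. Depth was unknown, and regions near the calling threshold cannot be separated from regions without acetylation.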
